A study of Rattus norvegicus with 17 samples.

Results

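Olig2 binding sites that were seen in oligodendrocyte precursors, were not seen at either later stage, and met no Brg1 peak at any stage numbered 5493. They made up 25.5% of the 21532 Olig2 regions with a peak in precursors and 17.4% of the 31655 Olig2 regions of any stage. The sites were chosen by the Olig2 and Brg1 peak lists: Olig2 peaks of the 3 stages were merged where they overlapped or touched, and a region was a member if it held a precursor peak and neither a later Olig2 peak nor a Brg1 peak. Their lack of later Olig2 and of Brg1 is therefore the definition of the set and not a result, and a place with no called peak may still be bound below the caller's threshold. Olig2 regions called only in precursors numbered 6039 in all, of which the Brg1-free members were 91.0%.

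The cells were wild-type primary cells of the oligodendrocyte lineage from Sprague-Dawley rats, isolated from cortex on postnatal day 2. Immature (iOL) and mature (mOL) oligodendrocytes were labelled T3 treatment, and the differentiation medium held 15 nM T3, a thyroid hormone, with 10 ng/ml ciliary neurotrophic factor. Oligodendrocyte precursors (OPC) were labelled mitogen treatment, and the growth medium held the mitogens PDGF-AA (10 ng/ml) and bFGF (20 ng/ml). ChIP-seq, which maps the DNA bound by a protein or wrapped on a modified histone, was done for Olig2, Brg1, H3K27Ac, H3K4me3 and H3K9me3 at the 3 stages and for RNA polymerase II (RNAPII) in OPC and iOL, with 1 library for each target and stage. Pooling of animals or cultures and the harvest times of iOL and mOL are facts not given in the sources used here. Gene annotation of the peaks' genome build was not used here, so the stage labels were not checked against marker genes.

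Olig2 is a basic helix-loop-helix transcription factor that specifies the oligodendrocyte lineage and stays expressed as precursors differentiate, while many of the places it binds change. Brg1 is the ATPase of the SWI/SNF complexes, which slide and evict nucleosomes and are recruited by lineage factors to regulatory DNA. Active enhancers and promoters carry H3K27Ac, promoters also carry H3K4me3, and H3K9me3 belongs to silent heterochromatin. RNAPII peaks mark promoters and other places where the polymerase accumulates. A transcription factor peak that meets none of these marks is a place called as bound, with no called sign of activity.

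Kept sites, meaning Olig2 regions called in OPC and again in iOL or mOL, serve as the comparison. They numbered 11097 without Brg1 and 4396 with it, and the Brg1-free ones are the closer match. Another 546 regions were called only in OPC and met Brg1, and 9120 Brg1-free regions were called only in iOL. For every class, with Brg1 means meeting a Brg1 peak of any stage, which need not be OPC. The classes were not split by the stage of that peak. All values are shares of regions that meet a peak by at least 1 bp, with exact Clopper-Pearson 95% intervals, and differences in percentage points carry Newcombe 95% intervals. Both treat regions as independent and cover counting error only. As each stage had 1 library per target, no difference between stages has a replicate check. The lists differ in length in ways that can set shares: H3K27Ac had 19130, 21589 and 35268 peaks in OPC, iOL and mOL, and Olig2 had 21901, 25787 and 2759. In the same order, Brg1 had 452, 5465 and 4378 peaks, H3K4me3 11758, 10467 and 17530, and H3K9me3 3149, 827 and 7103. With so few Brg1 peaks in OPC, few sites of any class could meet one of that stage. The depth of the libraries is unknown.

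The members covered 6.92 Mb, and 5448 of the 5493 consisted of 1 OPC Olig2 peak. Their width had a median of 1210 bp, with quartiles of 1099 and 1362 bp and a range of 703 to 4037 bp. Kept Brg1-free sites, measured over the OPC-called stretch, had a median of 1316 bp, kept sites with Brg1 1508 bp, and OPC-only sites with Brg1 1304 bp. The members were thus the narrowest of the 4 classes at the median. When all OPC Olig2 regions were split by width into 4 bins of like number, 41.6% of the narrowest bin, 29.3% and 19.4% of the next bins and 11.7% of the widest bin were members.

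The members also lay late in the deposited OPC Olig2 list. The meaning of that list's order is something not given in the sources used here. Place and width went together, with a Spearman correlation of -0.50 across the 21901 peaks. The median peak of a member stood 74.5% of the way down the list, that of a kept Brg1-free site 44.1%, and that of a kept site with Brg1 25.3%. Only 7 members' peaks stood among the first 2190 rows, 0.320% of them, whereas 53.9% of the last 2191 rows belonged to members. With the list cut into 10 such blocks, the share was higher in each block than in the block before.

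**Figure D1:**
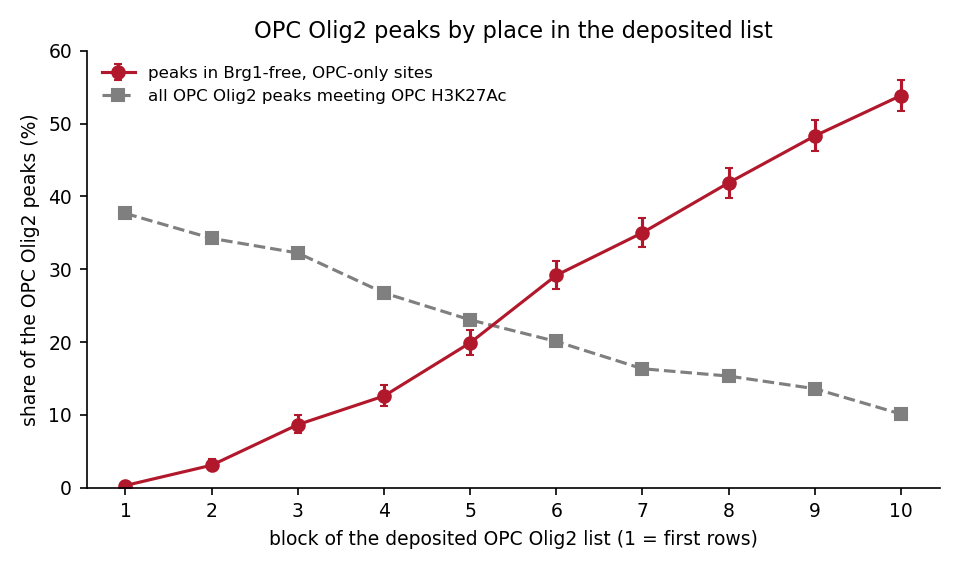
Share of OPC Olig2 peaks that belong to Brg1-free, OPC-only sites (red circles, with 95% Clopper-Pearson intervals) and share of all OPC Olig2 peaks that meet an OPC H3K27Ac peak (grey squares), in 10 blocks of the deposited list, first rows at the left. The red share is 0.320% in the first block and 53.9% in the last, and the grey share 37.7% in the first and 10.1% in the last.

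Acetylation of all OPC Olig2 peaks ran the other way along the list: 37.7% of the first block and 10.1% of the last met an OPC H3K27Ac peak. Place and width therefore move with membership and with acetylation at once, and comparisons of H3K27Ac are given below within 4 bins of each as well. H3K4me3, H3K9me3 and RNAPII are compared without bins. What part place and width play in membership itself was not tested.

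The member nearest to an iOL Olig2 peak, chr1:167119408-167120745 of build rn4, stopped 15 bp short of it and met no H3K27Ac peak at any stage. Within 200 bp of an iOL Olig2 peak lay 17 members, and within 1000 bp lay 159, or 2.89%. Within 1000 bp of a Brg1 peak lay 80, or 1.46%, the nearest at 2 bp. Just outside the rule, the kept region chr8:74765418-74766879 shared 18 bp with an iOL Olig2 peak and met H3K27Ac only in mOL. In all, 12 kept regions shared 200 bp or less with iOL Olig2, against a median of 773 bp shared. With every Olig2 and Brg1 peak cut to its middle 200 bp, the rule gave 7078 members in place of 5493, so the number depends on how peak edges are counted.

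Most members carried no active mark. No H3K27Ac, H3K4me3 or H3K9me3 peak was met at any stage by 4552 of the 5493 members, which is 82.9% (81.8 to 83.9), against 66.4% of kept Brg1-free sites. In single stages, 91.2% of members met none of the 3 marks in OPC, 94.4% in iOL and 85.5% in mOL. Kept Brg1-free sites gave 80.4%, 80.1% and 72.4%, so most of them met none either.

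H3K27Ac was met in OPC by 432 members, or 7.86% (7.17 to 8.61), against 19.0% (18.2 to 19.7) of kept Brg1-free sites. Across all OPC Olig2 regions, members included, 22.7% met it. The difference of -11.1 percentage points (-12.1 to -10.1) lay outside counting error. It was -5.62 points when averaged within the 4 bins of width and -8.26 points within 4 bins of place, the second being a comparison added after the values were seen. Members were the lower class in all 4 bins of each. By width, 2.95% of members and 5.52% of kept Brg1-free sites were acetylated in the narrowest bin, and 27.7% of members and 43.3% of kept sites in the widest bin.

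In iOL, 281 members met H3K27Ac, 5.12% (4.55 to 5.73) of them, against 19.5% of kept Brg1-free sites, where 23.3% of all OPC Olig2 regions did. The difference was -14.4 points (-15.3 to -13.4). In mOL, 747 members met it, 13.6% (12.7 to 14.5), against 26.6% of kept Brg1-free sites and 32.0% of all OPC Olig2 regions, a difference of -13.0 points (-14.2 to -11.7). Averaged within the 4 bins of width, the difference was -9.92 points in iOL and -7.38 in mOL, and within the 4 bins of place it was -13.4 and -11.3. The mOL share was the highest of the 3 stages in both classes with the lists as deposited, where the mOL list was also the longest. With the 3 H3K27Ac lists held to 19130 peaks each, the widest of each, 7.86%, 4.53% and 8.50% of members were acetylated in OPC, iOL and mOL, against 19.0%, 18.3% and 18.3% of kept Brg1-free sites. The mOL share was then not the highest among kept sites, and the mOL difference was -9.83 points (-10.8 to -8.78).

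OPC-only sites that met a Brg1 peak of any stage stood well above the members in H3K27Ac at every stage. Of them, 28.0% were acetylated in OPC, 25.1% in iOL and 50.7% in mOL. The members' difference from them was -20.2 points (-24.1 to -16.5) in OPC. These sites were fewer, 546, and wider. Sites called only in iOL and free of Brg1, measured over their narrower iOL peaks (median 647 bp), were acetylated in 12.4%, 19.9% and 24.3% of cases in OPC, iOL and mOL. Members had their lowest share in iOL and the iOL-only sites theirs in OPC.

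H3K4me3, the promoter mark, was rare at members and nearly as rare at kept sites. In OPC 121 members met it, or 2.20% (1.83 to 2.63), against 2.64% of kept Brg1-free sites and 2.59% of all OPC Olig2 regions. That difference of -0.44 points (-0.91 to 0.07) was within counting error. In iOL 96 members met it, or 1.75%, against 2.27% of kept Brg1-free sites and 2.23% of all. The iOL difference of -0.52 points (-0.95 to -0.06) lay just outside counting error. In mOL 179 did, or 3.26%, against 4.66% of kept Brg1-free sites and 4.73% of all, a difference of -1.40 points (-2.00 to -0.77). In OPC, 349 members (6.35%) had H3K27Ac without H3K4me3, 83 (1.51%) had both, and 38 (0.692%) had H3K4me3 without H3K27Ac. Kept Brg1-free sites gave 16.8%, 2.22% and 0.424% for the same states. Of the sites with H3K4me3 in OPC, 68.6% (59.5 to 76.7) of members also had H3K27Ac, against 84.0% (79.2 to 88.0) of kept Brg1-free sites.

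H3K9me3 was met by 13 members in OPC, or 0.237%, against 0.315% of kept Brg1-free sites and 0.325% of all OPC Olig2 regions. It was met by 2 members in iOL, or 0.0364%, where all OPC Olig2 regions gave 0.0604%, and by 29 in mOL, or 0.528%, where they gave 0.557%. None of the 3 differences from kept Brg1-free sites lay outside counting error, the mOL one being 0.05 points (-0.17 to 0.31). Both H3K9me3 and H3K27Ac of the same stage were met by 0 members in OPC, 0 in iOL and 6 in mOL, against 7, 3 and 17 of the 11097 kept Brg1-free sites.

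RNAPII was nearly absent. In OPC it met 0 of 5493 members, against 12 kept Brg1-free sites, or 0.108%, and 0.0604% of all OPC Olig2 regions. It also met 0 of the 546 OPC-only sites with Brg1 and 1 of the 4396 kept sites with Brg1. The Clopper-Pearson upper bound for the members was 0.0671%, above the share of all regions, while 3 counts would be 0.0546%, below it. The difference from kept Brg1-free sites was -0.108 points (-0.189 to -0.024). In iOL it met 4 members, or 0.0728% (0.0198 to 0.186), against 0.604% of kept Brg1-free sites and 0.641% of all. There the difference from kept Brg1-free sites was -0.531 points (-0.699 to -0.359). The RNAPII lists held 332 peaks in OPC and 1425 in iOL, so few sites of any class could meet one.

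**Figure D2:**
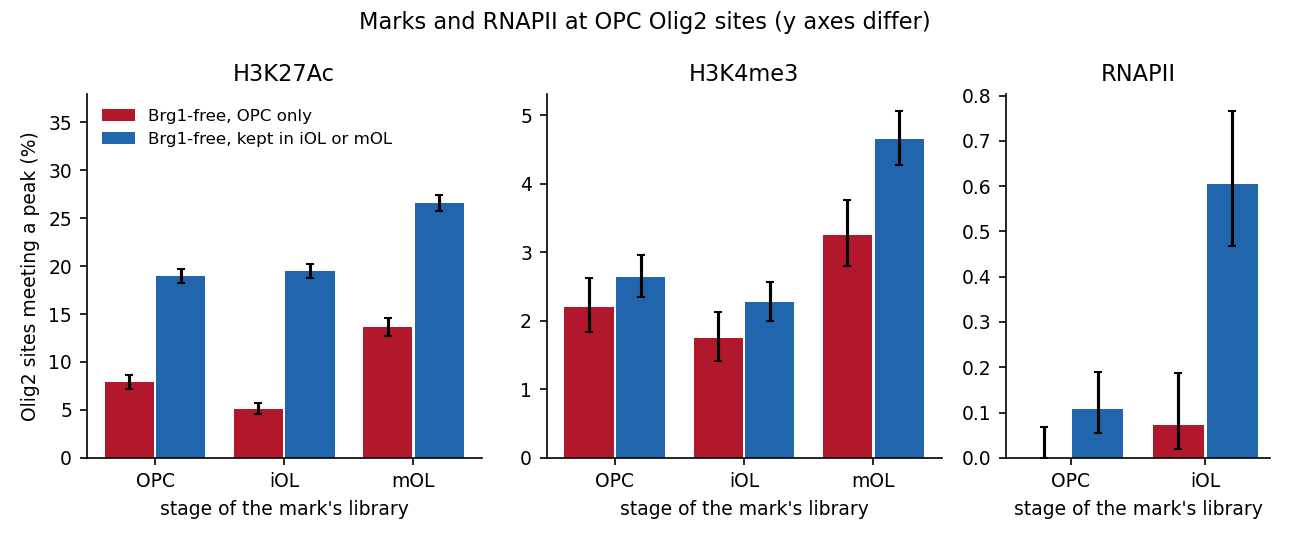
Share of Olig2 sites meeting a peak of H3K27Ac, H3K4me3 or RNAPII at each stage, for Brg1-free, OPC-only sites (red, n = 5493) and Brg1-free sites kept in iOL or mOL (blue, n = 11097), with 95% Clopper-Pearson intervals. H3K27Ac is lower in red at each stage (7.86%, 5.12% and 13.6%, against 19.0%, 19.5% and 26.6% in blue), while the H3K4me3 intervals overlap in OPC; the y axes differ.

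The 4 members with RNAPII in iOL are named here after their values were seen. The regions chr20:43076645-43078405 and chr1:267417726-267419159 carried H3K27Ac and H3K4me3 at all 3 stages. The region chr2:172501493-172503251 carried H3K27Ac throughout and H3K4me3 in mOL alone. The fourth, chr5:137516447-137517347, is 901 bp wide, stood at row 21137 of the 21901 and met no histone mark peak, with the nearest H3K4me3 peak 6.57 kb away. The first 3 thus met both active marks in at least 1 stage, and the fourth met neither.

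Acetylation over the 3 stages was sorted into patterns. Among members, 4613 (84.0%) had no H3K27Ac at any stage, 362 (6.59%) had it only in mOL, 183 (3.33%) at all 3 stages, 143 (2.60%) in OPC and mOL but not iOL, and 94 (1.71%) only in OPC. The other patterns were rarer: 59 in iOL and mOL, 27 only in iOL and 12 in OPC and iOL. The pattern that runs in step with the Olig2 calls, acetylation in OPC alone, held 94 of the 432 OPC-acetylated members, 21.8% (18.0 to 26.0), against 292 of 2105 such kept Brg1-free sites, 13.9% (12.4 to 15.4). Of all kept Brg1-free sites, 67.4% had no H3K27Ac at any stage, 7.15% had it only in mOL, 11.8% at all 3 stages, 3.36% in OPC and mOL, and 2.63% only in OPC.

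Members that were acetylated in OPC were less often acetylated in iOL than kept sites were. Of the 432, 195 met an iOL H3K27Ac peak, 45.1% (40.4 to 49.97), against 1440 of 2105 kept Brg1-free sites, 68.4% (66.4 to 70.4). The difference of -23.3 points (-28.3 to -18.1) was larger than counting error. It was -22.7 points averaged within the 4 bins of width and -26.6 within the 4 bins of place, about as large in each case. Width and place were binned separately and not together. With H3K27Ac lists of equal number the shares were 41.2% of members and 66.1% of kept sites. OPC-only sites with Brg1 stood between, at 54.2% (46.0 to 62.3) of 153.

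**Figure D3:**
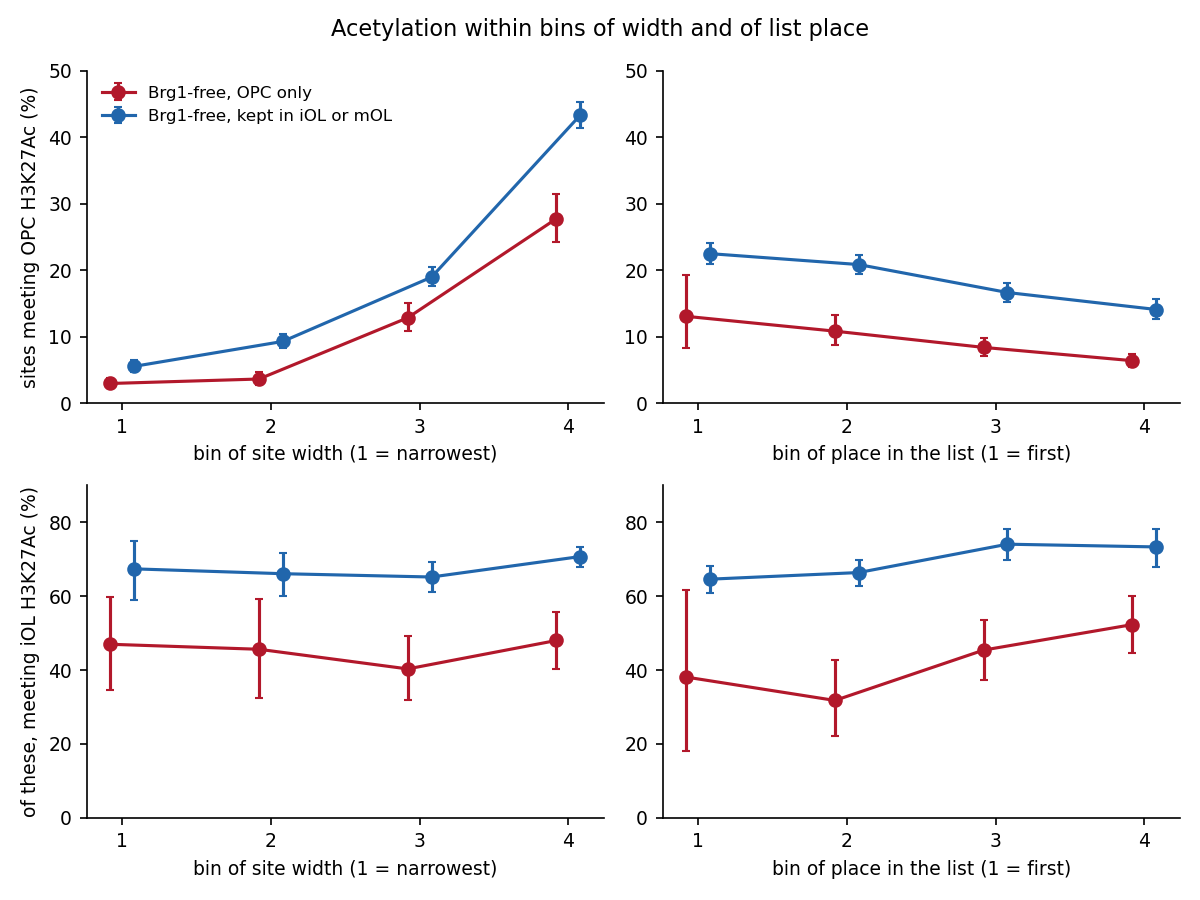
Brg1-free, OPC-only sites (red) and Brg1-free sites kept in iOL or mOL (blue) within 4 bins of site width (left) and of place in the deposited OPC Olig2 list (right), with 95% Clopper-Pearson intervals. Top, share meeting OPC H3K27Ac; bottom, share of those that also meet iOL H3K27Ac, where red lies at 31.8% to 52.3% and blue at 64.6% to 74.0% by place.

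By width, iOL acetylation of the OPC-acetylated was 47.0%, 45.6%, 40.3% and 48.0% of members from the narrowest to the widest bin. Kept Brg1-free sites gave 67.4%, 66.1%, 65.2% and 70.7% in the same bins. By place the members' values were 38.1%, 31.8%, 45.4% and 52.3% from first to last, and those of kept sites 64.6%, 66.4%, 74.0% and 73.3%. The first of these rests on only 21 OPC-acetylated members.

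In mOL the same 432 members were acetylated in 75.5% (71.1 to 79.5), against 80.0% of the 2105 kept Brg1-free sites. That difference was -4.58 points (-9.16 to -0.38), and with lists of equal number -5.56 points (-10.7 to -0.56). A member acetylated in OPC was thus more often acetylated in mOL than in iOL. Of the 237 members acetylated in OPC and not in iOL, 143 (60.3%) were acetylated in mOL, against 373 of 665 (56.1%) kept Brg1-free sites, and the intervals of these shares overlapped. With equal lists the shares were 44.5% (38.3 to 50.8) of members and 33.9% (30.4 to 37.5) of kept sites, and the intervals no longer overlapped. As each stage rests on 1 H3K27Ac library, a change between stages and a difference between libraries cannot be told apart.

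**Figure D4:**
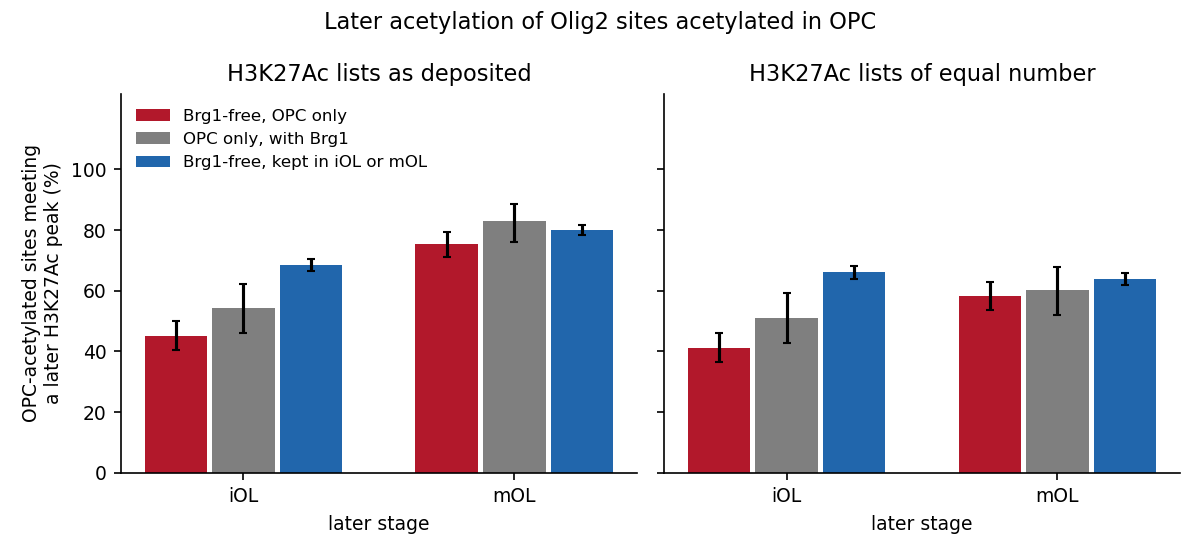
Olig2 sites that met an OPC H3K27Ac peak: the share that also met an H3K27Ac peak in iOL and in mOL, for Brg1-free, OPC-only sites (red, n = 432), OPC-only sites with Brg1 (grey, n = 153) and Brg1-free kept sites (blue, n = 2105), with 95% Clopper-Pearson intervals. In iOL red lies at 45.1% and blue at 68.4% with the lists as deposited (left), and at 41.2% and 66.1% with 19130 peaks a list (right). In mOL red lies at 75.5% and blue at 80.0% with the lists as deposited.

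The balance of loss and gain between OPC and iOL also differed between the classes. Among members, 237 sites were acetylated in OPC and not iOL, and 86 in iOL and not OPC, so losses made up 73.4% (68.2 to 78.1) of the changes. Among kept Brg1-free sites the counts were 665 and 721, or 48.0% (45.3 to 50.6) losses, and among iOL-only Brg1-free sites 206 and 893, or 18.7%. In both stage-limited classes, acetylation found at 1 of these stages alone was more often that of the stage at which Olig2 was called. Members without H3K27Ac in OPC met it in iOL in 1.70% of cases, against 8.02% of kept Brg1-free sites, and met it in mOL in 8.32%, against 14.1%.

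With the lists as deposited, the 121 members with H3K4me3 in OPC met that mark later more often than the 432 with H3K27Ac met theirs. These are different sets of sites, so the marks themselves are not compared. The mOL list of H3K4me3 was its longest, at 17530 peaks against 11758 in OPC, and no H3K4me3 lists of equal number were made. Of the 121 members with H3K4me3 in OPC, 91 (75.2%) also had it in iOL and 118 (97.5%) in mOL, close to the 77.5% and 96.9% of kept Brg1-free sites. Members with both marks in OPC met H3K27Ac in iOL in 61 of 83 cases, 73.5% (62.7 to 82.6), against 85.8% (80.8 to 89.9) of kept Brg1-free sites. Those with H3K27Ac alone did so in 134 of 349 cases, 38.4% (33.3 to 43.7), against 66.1% (63.9 to 68.3). In mOL, members with both marks in OPC met H3K27Ac in 83 of 83 cases, against 95.9% of kept Brg1-free sites. Those with H3K27Ac alone met it there in 243 of 349 cases, 69.6%, against 77.9%. At members with both marks, H3K27Ac was thus met later about as often as H3K4me3 was at members with H3K4me3. Whether the distance between the classes differs with H3K4me3 was not tested.

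Single sites show the range. The widest member, chr4:79050125-79054161, spans 4037 bp, was acetylated at all 3 stages with no H3K4me3, and lies 3.78 kb from a kept site. The next, chr5:118502023-118505409, spans 3387 bp and was acetylated only in mOL, and chr4:81148289-81151659, at 3371 bp, met no mark at all. These 3 sites differ in acetylation, whereas over all members the acetylated share was higher in each wider bin: 2.95%, 3.62%, 12.8% and 27.7%.

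The widest members acetylated only in OPC were chr5:118169445-118171672, chr2:39063492-39065714 and chr7:109361612-109363808, of 2228, 2223 and 2197 bp. They lay 6.00, 3.75 and 105.3 kb from the nearest kept site, and none met H3K4me3. After the widest member, the widest ones acetylated throughout were chr20:43619599-43622506, of 2908 bp and 1.28 kb from a kept site, and chr4:64109510-64112405, of 2896 bp and 10.3 kb from one. Neither met H3K4me3 at any stage.

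The widest members with H3K4me3 in OPC were chr1:54249180-54252332, chr4:142969985-142972618 and chr1:256063804-256066317, of 3153, 2634 and 2514 bp. All 3 carried H3K4me3 at every stage. The region at chr1:54249180-54252332 met H3K27Ac in OPC and mOL and not in iOL, as 143 members did, and the other 2 were acetylated throughout.

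Members lay a median of 43.8 kb from the nearest kept Olig2 site, with quartiles of 15.1 and 108.8 kb. The nearest other kept site lay a median of 35.1 kb from a kept Brg1-free site and 34.0 kb from an iOL-only site. Within 10 kb of a kept site were 998 members, or 18.2% (17.2 to 19.2), against 21.5% (20.8 to 22.3) of kept Brg1-free sites. Within 100 kb the shares were 72.8% of members and 78.4% of kept sites. At 1 kb they were 2.79% and 2.84%, with overlapping intervals.

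Acetylation in OPC was less frequent the farther a member lay from a kept site. It was met by 14.3% (11.5 to 17.4) of the 561 members within 5 kb of a kept site, 11.7% of the 437 between 5 and 10 kb, 8.12% of the 1947 between 10 and 50 kb, 6.75% of the 1052 between 50 and 100 kb, and 4.81% (3.78 to 6.02) of the 1496 beyond 100 kb. The median width went down with distance as well, being 1259 bp in the nearest band and 1167 bp in the farthest. The part of width in this trend was not tested.

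The state of the neighbour moved with it. Among members within 10 kb of a kept site, 74 of 322 (23.0%; 18.5 to 28.0) were acetylated in OPC where the nearest kept site was acetylated, and 57 of 676 (8.43%; 6.45 to 10.8) where it was not. The second share was close to that of members as a whole. The OPC H3K27Ac peak itself was shared with a kept Olig2 site in 10 of the 432 acetylated members, or 2.31%. Acetylated kept Brg1-free sites shared theirs with another kept site in 18 of 2105 cases, or 0.855%. Such sharing was thus rare in both classes.

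**Figure D5:**
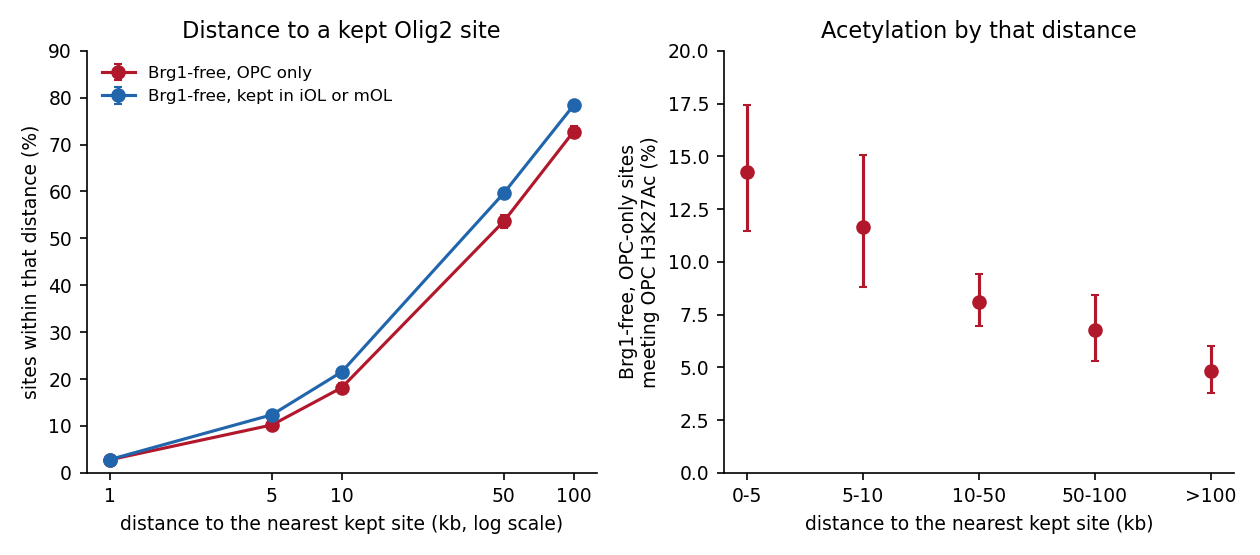
Left, share of Brg1-free, OPC-only sites (red) and of Brg1-free kept sites (blue) within 1, 5, 10, 50 and 100 kb of the nearest other kept Olig2 site (log axis). Right, share of the Brg1-free, OPC-only sites that meet OPC H3K27Ac, by distance to the nearest kept site, from 14.3% within 5 kb to 4.81% beyond 100 kb; bars are 95% Clopper-Pearson intervals.

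Members were also farther from marked chromatin in general. The nearest H3K4me3 peak of any stage lay a median of 100.1 kb from a member, against 63.6 kb from a kept Brg1-free site. The nearest H3K27Ac peak lay 74.9 kb away in OPC, 75.9 kb in iOL and 35.2 kb in mOL, against 38.6, 36.0 and 18.2 kb for kept Brg1-free sites. The distance to Brg1 hardly differed, at 99.4 kb for members and 96.5 kb for kept Brg1-free sites, both classes being defined by having no Brg1 peak.

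H3K27Ac domains, made by joining peaks across the gap commonly used to define super-enhancers, took in few further sites of either class. In OPC 8.57% of members met such a domain, in iOL 5.90% and in mOL 15.1%, against 19.7%, 20.3% and 28.0% of kept Brg1-free sites. In OPC, 471 members met a domain and 432 a peak, and 2191 kept Brg1-free sites met a domain and 2105 a peak.

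Members mostly lay apart from one another. Joined across gaps of up to 10 kb they formed 5273 runs, of which 5061 held a single member, 205 held 2, 6 held 3 and 1 held 4. The 432 members in runs of 2 or more were 7.86% of all, a count that happens to equal that of the OPC-acetylated members. Kept Brg1-free sites were in such runs in 16.1% of cases, in a list of 11097, and the part of list length in this difference was not tested. Of the shorter lists, the 4396 kept sites with Brg1 gave 10.6% (9.73 to 11.6) and the 546 OPC-only sites with Brg1 gave 1.10%. Runs count sites of 1 class only. An OPC Olig2 region of any class lay within 10 kb of 24.8% of members and 26.9% of kept Brg1-free sites.

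A measure less tied to list length is the class of the nearest OPC Olig2 region. It was another member for 28.0% (26.8 to 29.2) of members and for 23.8% (23.0 to 24.6) of kept Brg1-free sites, where members are 25.5% of all OPC regions. With a neighbour within 10 kb the shares were 27.1% (24.8 to 29.6) and 21.6% (20.1 to 23.1). Members thus had members as neighbours slightly more often than kept sites did.

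The largest run, chr19:11170612-11189117, held 4 members of 1489, 1199, 1454 and 1296 bp in 18.5 kb. It met no mark at any stage and lay 60.6 kb from the nearest kept site. Of the 6 runs of 3 members, the 2 with the longest span are given. The run chr11:45063068-45084359 spans 21.3 kb, had 1 member acetylated in OPC and 1 in mOL, and lay 96.7 kb from a kept site. The run chr11:77027697-77046727 spans 19.0 kb, met no mark and lay 98.9 kb from one. No kept site lay inside any of these 3 runs.

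By chromosome, members were 17.5% (13.7 to 21.8) of OPC Olig2 regions on chromosome 12, the lowest share, and 38.8% (34.4 to 43.3) on chromosome X, the highest, with 186 of 480 regions there. Among placed chromosomes, chromosome 2 came next with 30.7%. The OPC Olig2 regions of X were also the narrowest at the median, 1220.5 bp, and 15.2% of them were acetylated in OPC, against 31.7% on chromosome 12. The part of width and of acetylation in the share on X was not tested.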

How the data were processed

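The authors deposited 17 lists of peaks, 1 for each target and stage, each holding chromosome, start and end and no score, signal or p-value, and these positions are the values used here. The submitters' processing notes name MACS 1.4.0 and build rn4. Aligner, peak threshold, control library and filters are details not given in the sources used here, and read depth is unknown, so a longer list may come from a deeper library.

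Starts were made 1-based. Olig2 peaks were merged where they overlapped or touched, and kept regions were measured over their OPC-called part. Overlap meant at least 1 bp and was checked with bedtools 2.31.1, identical in 12 of 12 comparisons. The calculations recovered 12 of 12 simulated checks. For lists of equal number, each H3K27Ac list was cut to its widest 19130 peaks. The 4 bins of width and of list place were taken over all OPC Olig2 regions.

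Regions named are the widest 3 of each kind described, the 3 runs with most members (ties by longer span) and those nearest the rule's limit, off unplaced sequence (22 members). No per-stage tests were made. The members and lists were chosen with earlier results of these data known. Alternatives included stricter overlap, other gaps, other footprints and bins of width or place. Python 3.11.15 with numpy 2.4.6, pandas 2.3.3, scipy 1.17.1, statsmodels 0.14.6 and matplotlib 3.10.9 was used. No sequence is printed, as no genome of build rn4 was used here. Mouse RNA profiles, part of the same study, were not used here.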

Additional observations from a re-analysis of the deposited data

How the results depend on the processing

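No paired analysis was possible because each target and stage has 1 library, so no library could be left out either. Of 95 alternative values, 60 stayed near the main value, 35 moved and 0 reversed. Staying near meant within the main 95% interval, or within 1.5 times for the number of members. For the median distance to a kept site it meant within the quartiles of the members' distances, which are not a 95% interval. All 40 alternative differences between members and kept Brg1-free sites were negative. The wider 50% of the OPC Olig2 list gave 1694 members, with 18.1% acetylated in OPC (difference from kept sites -12.2 points, and -18.0 in iOL), 16.0% within 10 kb of a kept site and 4.37% in runs. OPC acetylation was 9.21% with marks within 1000 bp, where 50.8% of those were acetylated in iOL, and 6.86% over the middle 200 bp of each site. Its difference was -5.62 points within bins of width and -8.26 within bins of place. The difference in iOL was -9.92 within bins of width, and that in mOL -7.38 within bins of width, -11.3 within bins of place and -9.83 with equal lists. The middle 200 bp of every Olig2 and Brg1 peak gave 7078 members. Within 10 kb of a kept site were 12.9% of members counting Brg1-free kept sites only, 2.53% counting those called in OPC and mOL, and 16.1% between midpoints. The median distance, 43.8 kb in the main setting, was 60.8 kb with the wider 50% of the OPC Olig2 list. It was 64.8 kb to Brg1-free kept sites and 302.8 kb to those called in OPC and mOL. The share in runs was 7.03% between midpoints and 4.42%, 16.5% and 27.3% at gaps of 5, 25 and 50 kb. Share of members acetylated thus depends on how wide a site must be and how overlap is counted, and runs on the gap. The causes were not tested. Libraries of unknown depth limit all shares, and an absent peak is not absent binding. A called peak, from 1 library and without a score, is not proof of binding either.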
